A study of Mus musculus with 12 samples.

Results

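Trimethylation of histone H3 at lysine 4 (H3K4me3) was mapped by sequencing of immunoprecipitated chromatin (ChIP-seq) from nuclei of adult mouse cardiomyocytes (CMs), and the peaks described here are those with higher values after loss of *Cpt1b*. A peak was included if it lay on an autosome, carried an assigned gene, had a mean of at least 30 normalized counts over the 6 ChIP libraries, had all 3 values of the mutant above all 3 values of the control, and had a ratio of genotype means of at least 1.3. Of 15848 peaks in the deposited table, 12686 carried an assigned gene, 12294 of these were autosomal, and 10587 also reached the mean of 30 and are called eligible. All 3 mutant values lay above all 3 control values in 926 eligible peaks, and 265 of these reached the ratio of 1.3. These 265 raised peaks, each assigned to a different gene, are 2.50% of the eligible peaks. The mirrored rule, with all mutant values below all control values and the inverse ratio, gave 347 lowered peaks, or 3.28%. Because the members were selected on these values, their differences between genotypes are given as a description and carry no test.

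Both genotypes were kept on a C57BL/6 background and carried the same αMHC-Cre transgene (αMHC-Cre pos/+), in which the promoter of the cardiac alpha myosin heavy chain drives Cre recombinase in CMs. The control, CtrlCre, had unaltered *Cpt1b* alleles (*Cpt1b* +/+), and the mutant, Cpt1bcKO, had both *Cpt1b* alleles floxed at exons 10 and 11 (*Cpt1b* fl/fl). The labels give the cells as adult CMs without an age in weeks, and the study sorted ventricular nuclei that stain for the CM marker PCM1, so other cells of the heart still carry an intact *Cpt1b*. There were 3 ChIP libraries per genotype. The labels do not say whether these came from separate animals, and p-values therefore measure the spread between these libraries only. The 6 input libraries have no column in the table and were not used here.

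H3K4me3 is deposited around the start sites of active genes, where it forms a peak that is usually strongest just downstream of the start. Its level in a bulk sample reflects both how many cells carry the mark at a locus and how often each allele carries it, and these cannot be told apart. CPT1B, the product of *Cpt1b*, is the muscle form of carnitine palmitoyltransferase 1, which couples long-chain fatty acids to carnitine so that they can enter mitochondria. Fatty acids that are not oxidised can be stored in lipid droplets, hydrolysed from their CoA esters by thioesterases, or act as ligands of the nuclear receptors of the PPAR family, which are known to control many genes of lipid handling.

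The first sequences are RefSeq promoters (GRCm38.p6, 250 bases before to 50 after the annotated start, on the strand of the gene) of members that had among the largest ratios or belong to lipid storage, and they are shown because the position of their peaks differs. Capitals mark matches to motifs that were searched on both strands, as named before each sequence.

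Aqp8 (chr7:123462044-123462343, + strand; CACGTG): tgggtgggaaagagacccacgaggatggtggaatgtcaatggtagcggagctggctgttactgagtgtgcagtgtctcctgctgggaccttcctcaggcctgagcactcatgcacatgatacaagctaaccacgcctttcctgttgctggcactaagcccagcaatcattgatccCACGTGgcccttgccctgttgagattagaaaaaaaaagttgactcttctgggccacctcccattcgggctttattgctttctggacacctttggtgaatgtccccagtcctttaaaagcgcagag

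Gdf15 (chr8:70632407-70632706, - strand; a DR1 match with 1 mismatch): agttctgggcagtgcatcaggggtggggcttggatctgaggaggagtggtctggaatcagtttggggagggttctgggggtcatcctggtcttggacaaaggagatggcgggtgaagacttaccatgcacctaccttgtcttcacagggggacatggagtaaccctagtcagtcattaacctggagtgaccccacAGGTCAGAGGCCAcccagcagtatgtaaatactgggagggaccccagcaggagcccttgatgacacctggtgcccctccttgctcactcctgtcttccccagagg

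Acta1 (chr8:123894726-123895025, - strand; a CArG box, then TATAAA): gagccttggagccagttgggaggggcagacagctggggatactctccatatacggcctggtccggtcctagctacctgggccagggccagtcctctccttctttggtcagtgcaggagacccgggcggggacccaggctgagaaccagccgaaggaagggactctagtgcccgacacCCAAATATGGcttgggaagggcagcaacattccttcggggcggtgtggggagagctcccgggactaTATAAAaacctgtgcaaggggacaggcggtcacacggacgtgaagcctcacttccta

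Hsd17b11 (chr5:104021747-104022046, - strand; no match): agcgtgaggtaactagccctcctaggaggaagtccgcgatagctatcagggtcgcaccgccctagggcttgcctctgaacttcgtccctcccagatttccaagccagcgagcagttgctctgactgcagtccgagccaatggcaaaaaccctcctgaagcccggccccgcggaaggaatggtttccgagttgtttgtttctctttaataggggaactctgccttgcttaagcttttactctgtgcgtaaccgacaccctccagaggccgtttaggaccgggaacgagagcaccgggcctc

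Plin2 (chr4:86670010-86670309, - strand; CACGTG): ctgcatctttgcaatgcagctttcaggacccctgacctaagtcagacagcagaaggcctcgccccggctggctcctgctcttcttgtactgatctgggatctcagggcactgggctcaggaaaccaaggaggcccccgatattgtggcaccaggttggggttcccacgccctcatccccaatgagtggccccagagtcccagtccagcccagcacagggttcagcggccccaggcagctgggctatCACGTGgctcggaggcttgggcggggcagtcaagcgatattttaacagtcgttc

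The promoter of *Hsd17b11* lay inside its peak over all 300 bases, that of *Plin2* over 261 and that of *Aqp8* over 231. The peak of *Gdf15* overlapped this promoter by 0 bases and lay 775 bases downstream of its start and 414 bases downstream of a further annotated start, whose promoter is not shown, and the peak of *Acta1* shared 1 base with its promoter and ended 25 bases short of the start. H3K4me3 at the last 2 genes was therefore measured over the gene body. Over all 265 members, the peak contained a start of its own gene in 240 (90.6%, GENCODE vM21), against 95.3% of eligible and 85.9% of lowered peaks. The center of the peak was more than 1000 bases from the authors' start in 72 members (27.2%), against 15.2% of eligible and 39.5% of lowered peaks. Of the 20 members with the largest ratios, 8 held no start of their assigned gene, compared with 25 of all 265.

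Shares of peaks with a motif were compared with those of all eligible peaks, without a test. The DR1 element repeats AGGTCA after 1 base (AGGTCANAGGTCA), and PPAR with its partner RXR is known to bind it. Over whole peaks it matched with at most 1 mismatch in 11 raised peaks (4.15%), 3.09% of eligible and 4.32% of lowered peaks. In windows of 1000 bases around the summit, the shares were alike, at 1.13% of raised, 1.17% of eligible and 1.15% of lowered peaks. CACGTG, the E-box bound by MYC and clock factors, occurred in windows of 1000 bases around the summit in 22.6% of raised and 20.6% of eligible peaks. TGACTCA, bound by AP-1, occurred in 10.9% and 8.54% of windows, and in whole peaks in 30.6% and 20.8%. TTGCATCA, a site of the stress factor ATF4, occurred in 0.75% and 1.45% of windows, TGACGTCA, the cAMP response element, in 3.77% and 4.11%, and the CArG box of serum response factor in 4.15% and 3.34%. TATAAA occurred in 20.4% and 19.1% of windows. A CArG box can contain TATAAA, and no other of these motifs contains another. TGACTCA in whole peaks showed the widest difference, and whole peaks also differ in width. A match is a description of letters and not a site. Of 265 member names, 182 had a promoter in the RefSeq table used.

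The DR1 matches included the peaks of *Cpt1b* and *Agpat2* from the fatty acid list and the single exact match. Each is shown with 8 flanking bases in lower case, on the strand of the match, in GRCm38.p6.

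Peak of Cpt1b (chr15:89429366-89429378): gtcccgtgAGGTCAGGGGTCAgccctggg

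Peak of Agpat2 (chr2:26612143-26612155): taagaactAGGACAGAGGTCAtgtctggt

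Peak of Mafk, the exact match (chr5:139793819-139793831): ctggcctgAGGTCAGAGGTCAgggttaga

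The whole counts behind the rounded values could be recovered, and the 6 libraries held between 763133 and 2766416 counts in peaks, with CtrlCre replicate 2 the lowest. A single count was worth 2.32 normalized counts in that library and between 0.650 and 1.13 in the others. CtrlCre replicate 2 was alone the lowest of the controls at 126 of the 265 raised peaks (47.5%), against 36.7% of all eligible peaks, and Cpt1bcKO replicate 3 was alone the highest mutant library at 126 raised peaks (47.5%), against 32.5%. Without CtrlCre replicate 2 the rule selected 317 peaks, among them 206 of the 265, and without Cpt1bcKO replicate 3 it selected 288, among them 218. Of the 10 CM markers all had a peak, with summed values of 8491 to 10370 in CtrlCre and 6262 to 9047 in Cpt1bcKO libraries, and none of these peaks was raised. None of 6 immune markers, 1 of 8 endothelial and 1 of 8 fibroblast markers had an assigned peak. The 3 of 6 smooth muscle and mural markers with a peak summed to 140 to 217 in CtrlCre and 32 to 80 in Cpt1bcKO libraries, so no marker list of another cell type was higher in all Cpt1bcKO libraries.

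The targeted gene was itself among the raised peaks. The peak assigned to *Cpt1b* (chromosome 15, 89421995 to 89431151 in mm10) was, with 9156 bases, the widest of all 265. It held 428, 407 and 436 normalized counts in CtrlCre replicates 1 to 3 and 572, 689 and 568 in Cpt1bcKO. The means were 424 ± 14.98 and 610 ± 68.7 (SD, n = 3), a ratio of 1.44. This peak covers the *Cpt1b* start, exons 1 to 9 of 19 and the starts of the neighbouring gene *Chkb*, a choline kinase, so its reads cannot be divided between the genes.

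A further raised peak lay on the other side of the floxed exons under another name. It is assigned to *Syce3* (chromosome 15, 89415304 to 89420536), a gene of the meiotic synaptonemal complex whose nearest annotated start is 4801 bases away. The 5232 bases of this peak cover exons 12 to 19 of *Cpt1b*, the last 8, and the 1459 bases between the 2 peaks contain exons 10 and 11, the floxed pair. No union peak lies between them. The *Syce3*-assigned peak held 32, 53 and 47 normalized counts in CtrlCre and 90, 117 and 82 in Cpt1bcKO CMs. Its ratio was 2.19, larger than that of the upstream peak. Per 1000 bases of peak, the values were 6.1 to 10.1 in CtrlCre and 15.7 to 22.4 in Cpt1bcKO at the downstream peak, compared with 44.5 to 47.6 and 62.0 to 75.3 at the upstream peak. H3K4me3 was thus higher in Cpt1bcKO on both sides of the floxed exons, which the rule requires of each member. Per 1000 bases, the level was lower at the downstream peak in every library. The table gives no value for the floxed exons themselves.

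**Figure D1:**
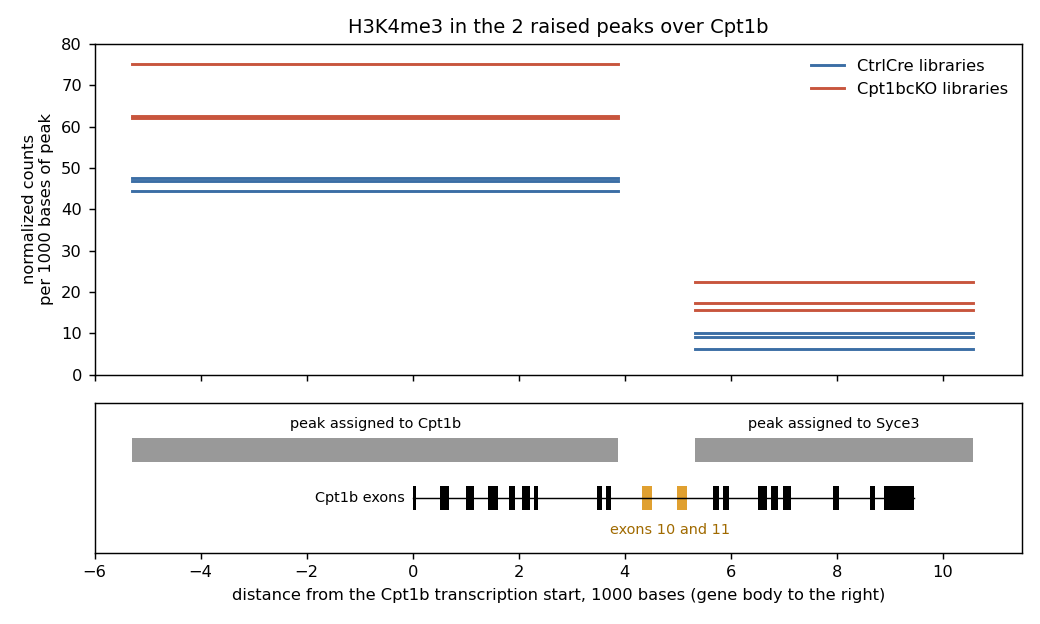
Normalized counts per 1000 bases of peak in each of the 6 libraries (upper panel, 1 line per library, blue CtrlCre and red Cpt1bcKO) over the extent of the 2 raised peaks at Cpt1b, with the peaks and the 19 exons drawn to scale below against the distance from the Cpt1b start in 1000 bases. By selection, all 3 Cpt1bcKO lines lie above all 3 CtrlCre lines in both peaks. Exons 10 and 11 (orange) fall in the gap of 1459 bases between the peaks.

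The members were compared with other gene-assigned peaks for base composition and width, again without a test. The median GC content of the 1000-base windows was 59.6% in raised, 60.1% in eligible and 58.2% in lowered peaks. The ratio of observed to expected CpG had medians of 0.695, 0.744 and 0.554. Windows with a CpG ratio under 0.4 made up 9.4% of raised, 5.2% of eligible and 25.6% of lowered peaks. The windows are centered on the summit of the peak and need not lie over a promoter. Such windows were more frequent at the top of the raised list, with 7 of the 21 members at a ratio of genotype means of at least 2. Among them were *Aqp8*, whose peak holds its start, and *Acta1*, whose peak does not. Median widths were 1763 bases for raised, 1728 for eligible and 2016 for lowered peaks. Broad peaks, wider than the 75th percentile of 2443.5 bases, made up 77 of the 265 raised peaks (29.1%), 25% of eligible and 38.9% of lowered peaks. The share of raised peaks fell below that of eligible peaks with quantile normalization (23.2%) and without CtrlCre replicate 1 (23.9%) or Cpt1bcKO replicate 2 (23.0%). The median CtrlCre mean was 71.3 normalized counts for raised, 131 for eligible and 92.0 for lowered peaks, a value that the rule itself used. Their median ratio was 1.43 (quartiles 1.35 and 1.59), with 99 members at 1.5 or more, 21 at 2 or more and 5 at 3 or more. The share of eligible peaks that were raised ran from 1.35% on chromosome 18 to 3.99% on chromosome 15.

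**Figure D2:**
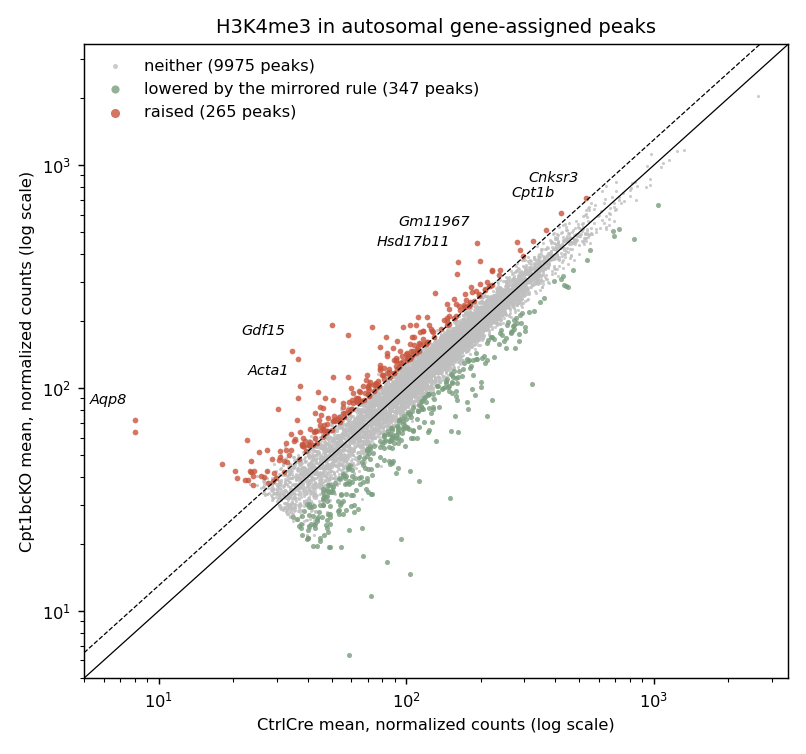
Mean H3K4me3 of 3 CtrlCre libraries (x axis) against the mean of 3 Cpt1bcKO libraries (y axis), in normalized counts on log scales, for the 10587 eligible peaks. The 265 raised peaks lie above the dashed line of ratio 1.3 by their selection, with a median CtrlCre mean of 71.3, and Aqp8 sits beside the unlabelled Gm26785 at the lowest CtrlCre mean of 8.

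The 2 members with the largest ratios had CtrlCre means of 8 normalized counts, and a small denominator favours a large ratio. *Aqp8* (chromosome 7, 123462112 to 123463607), which encodes a channel for water and other small molecules, held 8, 12 and 4 normalized counts in CtrlCre and 63, 60 and 93 in Cpt1bcKO libraries. The control values correspond to 10, 5 and 4 counts, so the ratio of 9 rests on a small denominator, and it ran between 7.2 and 12 on removal of 1 library at a time. The peak assigned to the noncoding gene *Gm26785* (chromosome 17, 46268173 to 46269820) contains no start of that gene but a start of *Tjap1*, which encodes a tight junction protein. It held 8, 14 and 2 in CtrlCre and 37, 58 and 96 in Cpt1bcKO, a ratio of 7.96. The control libraries had 9, 6 and 2 counts there, and the ratio ran from 5.79 to 12.7, the latter without CtrlCre replicate 2. The mutant values lay above all controls, which the rule requires.

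*Gdf15* (chromosome 8, 70629464 to 70631681) encodes a secreted factor known to be made by cells with mitochondrial stress. Its peak held 29, 35 and 40 normalized counts in CtrlCre and 157, 149 and 135 in Cpt1bcKO CMs. The means were 34.7 ± 5.5 and 147 ± 11.1 (SD, n = 3), and the log2 difference was 2.06 (SE 0.17) on the log2(value + 1) scale. The lowest mutant library had 3.38 times the value of the highest control, the largest separation after *Aqp8*. *Acta1* (chromosome 8, 123892252 to 123894726), the skeletal muscle actin that the fetal heart also uses, held 22, 46 and 42 in CtrlCre and 93, 170 and 142 in Cpt1bcKO. Its ratio was 3.68. The spread among the mutant libraries, 135 ± 39.0 (SD, n = 3), was wider than at *Gdf15*. That the groups did not overlap is required by the rule.

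Other members with large ratios included a noncoding gene and 2 receptors. The peak named *Gm15764* contains no start of that noncoding gene and held 33, 79 and 38 in CtrlCre and 164, 199 and 211 in Cpt1bcKO, a ratio of 3.83. *N4bp3* (chromosome 11, 51648958 to 51651381), a protein that binds the ubiquitin ligase NEDD4, held 54, 67 and 53 against 149, 173 and 199. *Mroh5* had 25, 21 and 22 in CtrlCre and 57, 53 and 65 in Cpt1bcKO. The lowest mutant value was at least 2.08 times the highest control at these 3 peaks. *Unc5a*, a netrin receptor, had 16, 21 and 17 against 23, 34 and 80, so that its ratio of 2.54 fell to 1.58 without Cpt1bcKO replicate 3. *Ptger3*, the EP3 receptor for prostaglandin E2, had 23, 65 and 22 against 78, 96 and 97, and its ratio of 2.46 became 4.02 without CtrlCre replicate 2. Single libraries decide the size of the ratio at the last 2 genes.

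Receptors and a channel subunit followed. *Tnfrsf1b*, a receptor for tumour necrosis factor, held 16, 28 and 17 normalized counts in CtrlCre and 31, 43 and 53 in Cpt1bcKO libraries. *Rtn4r*, the Nogo receptor, held 88, 91 and 70 against 198, 160 and 150. *Scn4b* (chromosome 9, 45137129 to 45141730), a beta subunit of cardiac sodium channels, held 96, 123 and 71 against 189, 185 and 193. Its mutant libraries differed by 8 normalized counts at most, and its controls by 52. *Prune2* had 127, 151 and 203 in CtrlCre and 348, 304 and 322 in Cpt1bcKO, and *AW011738* had 141, 109 and 143 against 263, 261 and 276. *Tgoln1*, a protein of the trans-Golgi network, had 184, 205 and 209 against 347, 416 and 349. At *Prune2*, *AW011738* and *Tgoln1*, the ratios were 2.02, 2.04 and 1.86, and the lowest mutant value exceeded the highest control by at least 101. Of the 25 largest ratios, those not described elsewhere were *Gm44456*, *Gm48356*, *Srgap1*, *Morn4*, *Rps4l* and *Cdh4*, with ratios from 1.95 to 2.74. *Rps4l* resembles a ribosomal protein gene in sequence, so its reads are uncertain.

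**Figure D3:**
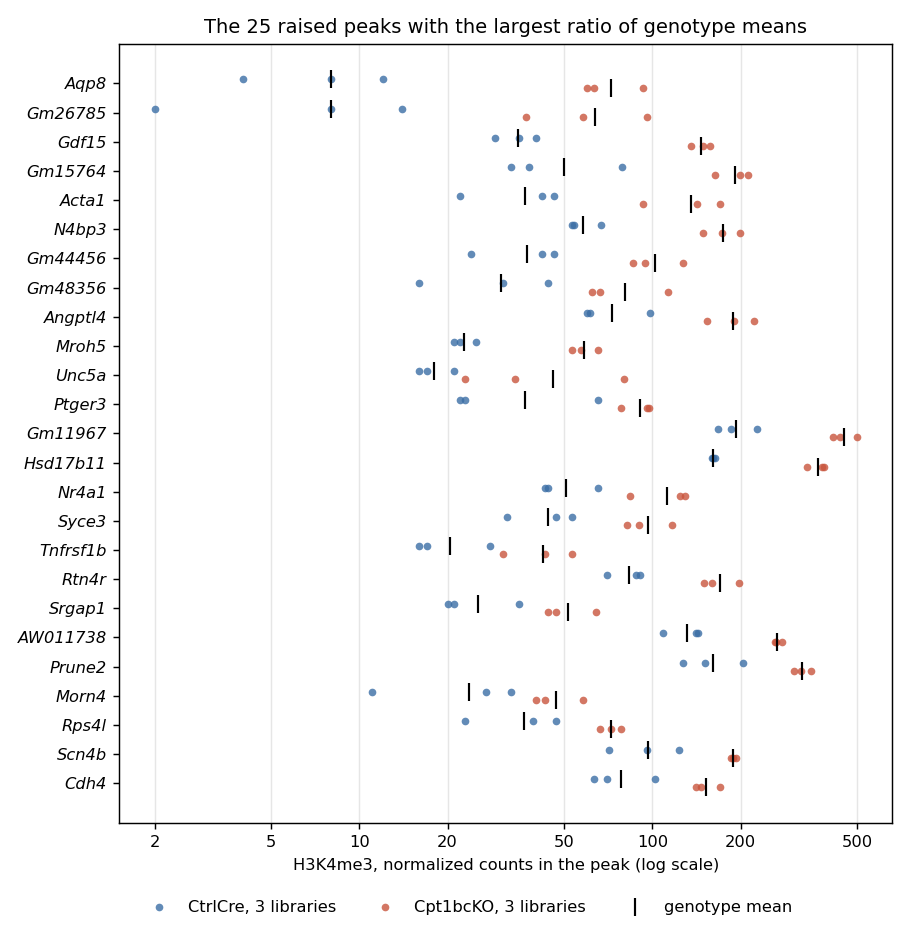
Normalized counts on a log scale for the 25 raised peaks with the largest ratio, with 1 point per library (blue CtrlCre, red Cpt1bcKO) and a bar at each genotype mean. No red point falls at or left of the blue points of its row by selection, and the gap is wide at Aqp8, Gdf15 and Hsd17b11 but narrow at Unc5a and Tnfrsf1b.

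The list of fatty acid uptake, storage and oxidation genes held the most members. Of its 82 genes, 69 had eligible peaks, 70 in all, and 12 of these were raised (17.1%), compared with 2.50% of all eligible peaks, while 2 were lowered. In limma over 15039 peaks, which called 1.11% of peaks higher and 1.82% lower, 11 genes of the list with a tested peak passed as higher and 2 as lower, among 72. All 11 belong to the members that the rule had selected on the same values, so the calls are no independent evidence. The median log2 difference over the list was 0.14, against 0.02 over all 12085 genes tested. It includes the members, which were selected on this contrast. The cell cycle list had the same median of 0.14, and the other lists ran from -0.15 (contraction and maturation) to 0.09 (integrated stress response). In the leave-one-out selections, 12 to 16 genes of the list were raised, with 16 without Cpt1bcKO replicate 3. Those selections hold 288 to 445 peaks, since fewer libraries have to be ordered, so a count that does not fall shows no stability. The list was written with earlier results of these data known.

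Enzymes and carriers that act beside CPT1B in oxidation were among them. *Slc25a20* (chromosome 9, 108661912 to 108663861) encodes the carrier that exchanges acylcarnitine across the inner mitochondrial membrane, the step after CPT1. It held 148, 135 and 156 normalized counts in CtrlCre and 201, 230 and 186 in Cpt1bcKO CMs, a ratio of 1.41. The mitochondrial thioesterase *Acot2* (chromosome 12, 83987061 to 83991365) held 210, 253 and 204 against 319, 347 and 354. *Acot7*, a thioesterase of the cytosol, held 80, 60 and 71 against 103, 85 and 111. *Ucp3* (chromosome 7, 100472457 to 100477453), an uncoupling protein of the inner membrane in muscle, held 218, 219 and 227 against 356, 361 and 288. Its controls lay within 9 normalized counts of each other, and its lowest mutant library was 61 above them. At *Acot7* the groups were only 5 apart.

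Regulators of fuel choice were also on the list. *Angptl4* (chromosome 17, 33778476 to 33782220), a secreted inhibitor of lipoprotein lipase, held 60, 98 and 61 in CtrlCre and 153, 190 and 222 in Cpt1bcKO CMs. *Pdk4* (chromosome 6, 5489968 to 5496359), the kinase that turns off pyruvate dehydrogenase, held 239, 300 and 305 against 499, 548 and 314. Cpt1bcKO replicate 3 exceeded the highest control of *Pdk4* by only 9, and the ratio of 1.61 was 1.86 without it. *Pparg* (chromosome 6, 115360706 to 115362644), the PPAR known from fat cells, held 130, 126 and 129 against 199, 159 and 178. Its controls spanned 4 normalized counts.

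Lipid storage genes were raised as well. *Hsd17b11* (chromosome 5, 104018974 to 104022654), a dehydrogenase that sits on lipid droplets, held 161, 160 and 163 in CtrlCre and 338, 379 and 384 in Cpt1bcKO CMs. With means of 161 ± 1.5 and 367 ± 25.2 (SD, n = 3), the log2 difference was 1.18 (SE 0.10), the largest of the list after *Angptl4* at 1.38 (SE 0.17). The droplet coat genes *Plin5* and *Plin2* held 109, 100 and 115 against 165, 161 and 141, and 103, 100 and 110 against 135, 155 and 151. *Agpat2*, an acyltransferase of triglyceride synthesis, had its raised peak 2529 bases upstream of the nearest annotated start (chromosome 2, 26606946 to 26613392). That peak held 138, 156 and 143 against 245, 279 and 189, while the *Agpat2* peak over the start held 97, 123 and 119 against 138, 136 and 148 and missed the rule with a ratio of 1.245. Among listed genes that were not raised, *G0s2*, an inhibitor of triglyceride lipase, was lower in limma (log2 difference -0.57, adjusted p = 0.00477), as was *Ucp2* (log2 difference -0.64, adjusted p = 0.0443).

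**Figure D4:**
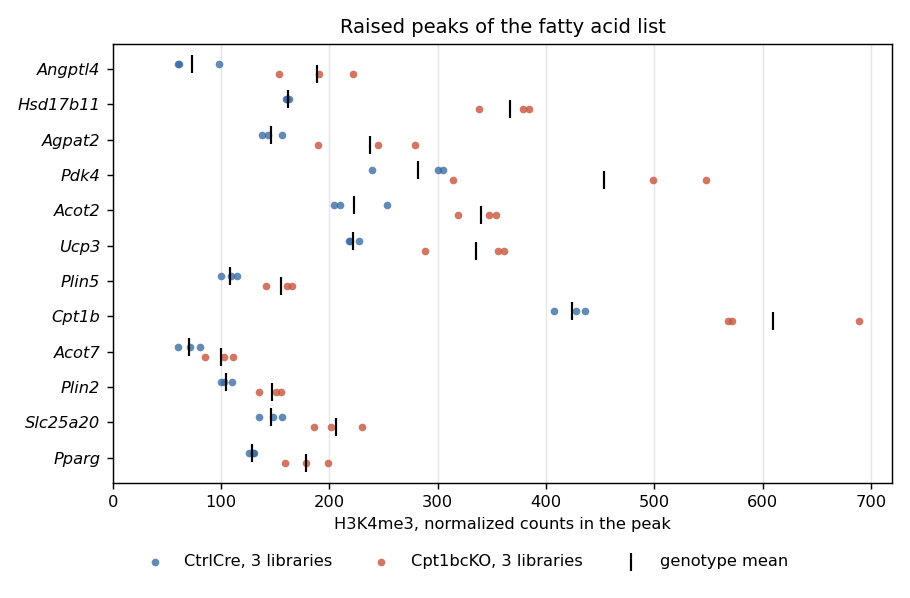
Normalized counts per library for the 12 raised peaks of the fatty acid list, ordered by ratio, with 1 point per library (blue CtrlCre, red Cpt1bcKO) and a bar at each genotype mean. Control points cluster tightly at Hsd17b11, Ucp3 and Pparg, and a single Cpt1bcKO point of Pdk4 sits next to its controls.

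The name in the table covers a single gene, and 25 raised peaks contained a start of another protein-coding gene in GENCODE vM21. Peaks with 2 or more coding starts made up 6.8% of raised and 12.6% of eligible peaks. The peak assigned to *Gm15743* (chromosome 16, 31428318 to 31430479) contains a start of *Bdh1*, a ketone body dehydrogenase, and held 130, 95 and 127 in CtrlCre and 176, 160 and 204 in Cpt1bcKO. These reads cannot be divided between the 2 genes, and this peak was picked out after its values were seen. The largest gain of all members, 257 normalized counts, was at the antisense gene *Gm11967*. Its peak held 186, 167 and 227 against 413, 500 and 437, and the groups were far apart.

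Further members outside the list, likewise named after their values were seen, have known roles in lipid and glycerol metabolism. *Acot3*, a peroxisomal thioesterase, lies 60822 bases from the *Acot2* peak and held 82, 98 and 75 in CtrlCre and 113, 118 and 124 in Cpt1bcKO. *Gpd1*, the cytosolic glycerol 3-phosphate dehydrogenase, held 51, 46 and 55 against 78, 87 and 100. *Acsf2*, an acyl-CoA synthetase, held 55, 49 and 63 against 79, 79 and 99. *Ephx2*, the soluble epoxide hydrolase, held 106, 102 and 109 against 161, 181 and 166. At all 4 the genotypes were separated by 15 normalized counts or more. *Apoe*, an apolipoprotein, had 31, 46 and 30 in CtrlCre and 59, 59 and 60 in Cpt1bcKO, and *Mlxipl*, a glucose-sensing transcription factor of lipogenesis, had 133, 105 and 113 against 184, 161 and 153. *Mlxipl* was the only raised gene among the 38 eligible peaks of the lipogenesis and sterol list, of which 3 were lowered. On that list *Fasn*, fatty acid synthase, was lower in limma (log2 difference -0.46, adjusted p = 0.0297).

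The other lists held up to 3 members each. For comparison with each of them, 2.50% of all eligible peaks were raised and 3.28% were lowered. Limma called 126 of all 12085 genes tested higher and 171 lower. In the list of the integrated stress response with serine and one-carbon enzymes, 2 of 39 eligible peaks were raised (5.13%), *Gdf15* and *Shmt1*. *Shmt1*, the cytosolic serine hydroxymethyltransferase, held 41, 42 and 40 in CtrlCre and 50, 76 and 70 in Cpt1bcKO. The list of contraction and maturation genes held 1 raised peak among 48 (2.08%), *Scn4b*, and 8 lowered peaks, and limma called 1 of 47 genes higher and 6 lower. The list of fetal, stress and cytoskeletal genes held 1 raised peak among 27, *Acta1*, and 5 lowered peaks. The smooth muscle actin *Acta2* went the other way from *Acta1*, with 97, 119 and 71 in CtrlCre and 29, 10 and 24 in Cpt1bcKO and an adjusted p of 7.36e-05 in limma. No peak of the 38 in the hypoxia and glycolysis list or the 23 of the circadian clock list was raised. The redox list had 1 raised peak among 34, *Gpx4*, a peroxidase of lipid peroxides, with 154, 139 and 147 against 177, 192 and 209.

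The immediate early list held raised and lowered peaks side by side. Of its 36 eligible peaks, 3 were raised (8.33%) and 5 were lowered. *Myc* (chromosome 15, 61983508 to 61989242), the growth-promoting transcription factor, held 385, 358 and 356 in CtrlCre and 466, 544 and 530 in Cpt1bcKO. *Mafk*, a small Maf factor, held 213, 228 and 268 against 305, 339 and 317. *Nr4a1*, an orphan nuclear receptor, had 2 peaks with opposite directions. The raised peak (chromosome 15, 101260597 to 101262719) lies 4127 bases upstream of the start shared by its transcripts Nr4a1-201 and Nr4a1-203 and held 43, 44 and 65 against 84, 129 and 124. The peak over that start held 93, 74 and 101 against 63, 53 and 55, a ratio of 0.638 with an adjusted p of 0.0460 in limma. *Dusp1*, a phosphatase of MAP kinases, was lower in limma (log2 difference -0.58, adjusted p = 0.000874).

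Among cell cycle genes, 3 of 42 eligible peaks were raised (7.14%) and 0 were lowered. *Ccnd1* (chromosome 7, 144937697 to 144943718), cyclin D1, held 231, 205 and 198 in CtrlCre and 305, 298 and 297 in Cpt1bcKO, with mutant libraries within 8 of each other. *Bub1b*, a kinase of the spindle checkpoint, held 33, 33 and 48 against 52, 50 and 65. The raised *Cdkn1b* peak, whose gene encodes the cell cycle inhibitor p27, held 56, 33 and 54 against 66, 62 and 64, and its ratio of 1.34 fell to 1.16 without CtrlCre replicate 2. The larger *Cdkn1b* peak had a ratio of 0.961. Limma called 1 of 45 genes of this list higher, *Ccnd1*, and 0 lower, against 126 and 171 of all 12085 genes tested. Outside the list, and chosen after their values were seen, *Kif11*, the mitotic spindle motor, held 169, 121 and 179 against 252, 239 and 265, *Spag5* held 38, 21 and 39 against 59, 50 and 50, and *Cenpw* held 88, 37 and 71 against 94, 94 and 99. CtrlCre replicate 2 was the lowest control at all 3.

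Survival and growth factor genes gave a mixed picture. *Bcl2* (chromosome 1, 106711475 to 106714854), which protects cells from apoptosis, held 133, 135 and 96 in CtrlCre and 198, 201 and 225 in Cpt1bcKO. *Bid*, which promotes apoptosis, held 40, 33 and 25 against 54, 56 and 61. These 2 of the 20 eligible peaks of the Bcl2 family list were raised, and 2 were lowered, *Bik* and *Bbc3*, both promoters of apoptosis, with adjusted p-values of 8.82e-05 and 0.0375 in limma. Of 52 eligible peaks of growth factor and receptor genes, 2 were raised. *Pdgfb*, a platelet-derived growth factor, held 76, 63 and 62 against 92, 99 and 117, and *Met*, the receptor of hepatocyte growth factor, held 67, 91 and 94 against 121, 108 and 120. *Fgf2*, *Irs1* and *Igf1* of this list were lower, with adjusted p-values of 0.00286, 0.01 and 0.0390 in limma.

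**Figure D5:**
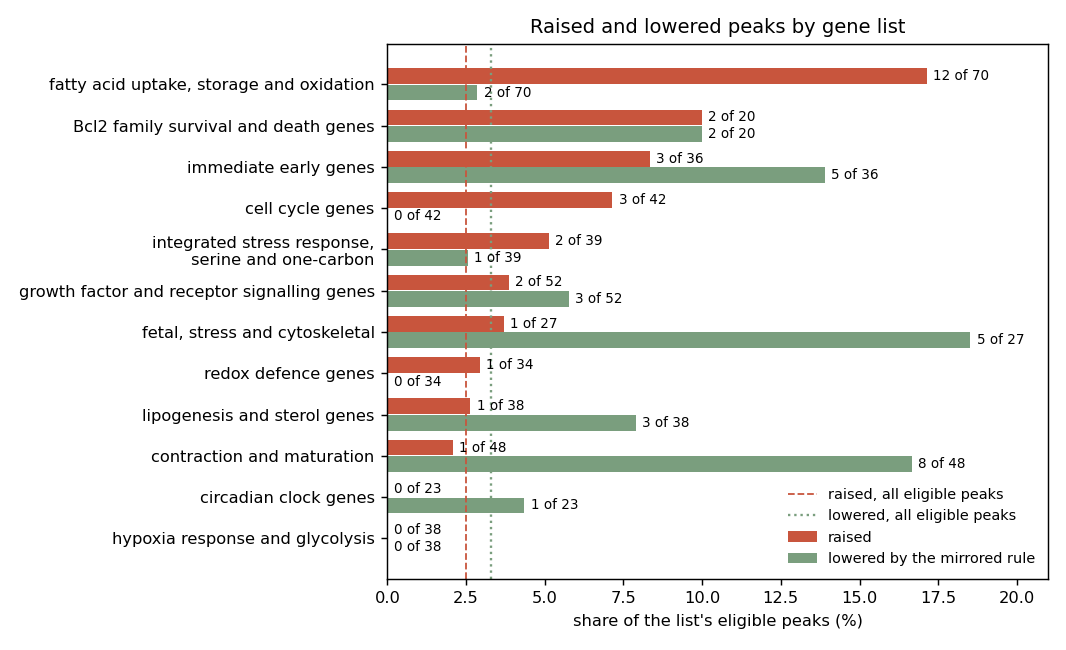
Share of the eligible peaks of each gene list that were raised (red) or lowered (green), in percent, with the counts beside the bars. Vertical lines mark the shares over all 10587 eligible peaks, 2.50% raised and 3.28% lowered. The fatty acid list has the highest raised share, and the contraction, fetal, immediate early, growth factor, lipogenesis and clock lists have more lowered than raised peaks.

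The 5 members with the highest control means, *Cpt1b* and *Myc* among them, had ratios from 1.321 to 1.439. *Cnksr3* (chromosome 10, 7207346 to 7214192), a scaffold of Ras signalling, held 526, 567 and 498 in CtrlCre and 713, 710 and 707 in Cpt1bcKO libraries, a gain of 180 normalized counts at a ratio of 1.34. *Bsg*, the basigin that carries lactate transporters to the membrane, held 334, 356 and 289 against 440, 494 and 434. *Shb*, an SH2 adaptor, held 290, 260 and 341 against 413, 370 and 394. *Cpt1b*, *Mafk*, *Cnksr3*, *Bsg* and *Agpat2* were the widest 5 members, at 6446 to 9156 bases. Broad members had a median gain of 69.3 normalized counts and a median SE of 0.12, compared with 19.8 and 0.22 for narrow members of under 1295 bases, and the median ratios were 1.44 and 1.46.

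At the lower edge of the rule, the members nearest a ratio of 1.3 were *Scamp5* (1.3), *1810032O08Rik* (1.301) and *Cep55* (1.302). *Scamp5* held 53, 44 and 53 in CtrlCre and 71, 64 and 60 in Cpt1bcKO. *Mettl5*, *Znf706* and *Zcchc10* lay just under the limit, at 1.299, 1.298 and 1.297, and *Mettl5* held 110, 98 and 116 against 140, 147 and 134. The least abundant members, *Lrrn3* and *Gm37307*, had means of 30.2 and 30.3, and *Dnah2* fell out with 29.3. Members and non-members were continuous at both edges. The lowest Cpt1bcKO value exceeded the highest CtrlCre value by 5 normalized counts or fewer in 57 of the 265 members, and the median gap was 13. Limma called 116 of the 265 (43.8%) higher, against 1.11% of all peaks tested, and 149 did not pass. The rule used the same contrast, so nothing is read from this share. Limma called 167 peaks higher in all, and 90 without CtrlCre replicate 1 and 102, 96 and 85 without Cpt1bcKO replicates 1, 2 and 3. Of 118 eligible peaks that limma called higher, 2 were no members.

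Distances between members were also listed, without a count for eligible peaks to compare. There were 9 pairs of neighbouring members within 100000 bases of each other, including *Syce3* with *Cpt1b*, *Acot2* with *Acot3* and *Ticrr* with *Kif7*. The pairs *Gm44456* with *Gm11292*, *Gm11292* with *Gm48356* and *Btn1a1* with *Hist1h4a* lay on chromosome 13. Of 11 further peaks assigned to member genes, 2 lay in the raised direction without overlap, at *Tmem171* and *Agpat2*, and 2 in the lowered direction, at *Lrsam1* and *Nr4a1*.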

How the data were processed

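Nuclei of PCM1-positive ventricular CMs were used for H3K4me3 ChIP-seq, with 3 ChIP libraries per genotype among 12 samples. The authors trimmed 75-base single-end reads (Trimmomatic 0.39), mapped unique, unspliced reads to mm10 with STAR 2.6.1d and removed duplicates with Picard 2.21.7. They called peaks over input (MUSIC, false discovery rate 0.2), merged them into 1 union set and divided counts by DESeq2 1.26.0 size factors. Each peak was assigned to the nearest start within 5000 bases (GENCODE vM15). The deposited values are normalized counts rounded to whole numbers (a score per peak). Deposited signal columns give the authors' unrounded mean per genotype, used only to recover counts, and a deposited fraction column gives the part of a peak in the gene body. Columns with the authors' fold changes and p-values were not used.

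Differences were fitted with limma 3.58.1 (R 4.3.3, trend, Benjamini-Hochberg, threshold 0.05) on log2(value + 1) over 15039 peaks with a mean of at least 10. Whole counts were recovered from the rounded values for 15848 peaks (tolerance 0.0001) to give depth, where 3 counts correspond to 1.95 to 6.97 normalized counts. Fold changes on the log2(value + 1) scale understate low peaks, and each SE comes from the spread between libraries in the limma fit. The fit was tested on simulated data. Other work used Python 3.11.15, pandas 2.3.3, scipy 1.17.1, pyfaidx 0.9.0.4 and matplotlib 3.10.9, with GENCODE vM21 and RefSeq sequence of GRCm38.p6. Coordinates are those of the file.

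Named genes are the 25 members with the largest ratio, the 10 with the largest gain, the 5 widest, the 5 with the highest CtrlCre mean, all members on a list, peaks at the edges of the rule, at most 3 non-members per list called by limma, and genes with several members. Further members are named as neighbours, for further peaks of their gene, or where the text says that they were chosen after their values were seen. Members and lists were chosen with earlier results of these data known. Alternatives changed the rule, scaling, pseudocount, filter, model and libraries. Results on some items are not reported here.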

Additional observations from a re-analysis of the deposited data

How the results depend on the processing

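The count of 265 raised peaks became 508, 99 and 21 with ratios of at least 1.2, 1.5 and 2, which follows from the limit itself, and 216 to 391 under the alternatives on mean, medians, chromosomes, overlap and scaling. Leaving out single libraries gave 288 to 445 raised peaks, since fewer libraries have to be ordered, with 206 to 249 of the 265 kept, and 445 was reached without CtrlCre replicate 3. Quantile normalization kept 248. The fatty acid list held 6 and 2 raised peaks at ratios of 1.5 and 2, and 12 to 17 otherwise, and this count per list was added after seeing the data, under the alternatives planned for the rule. Limma called 167 peaks higher and 274 lower, and leaving out single libraries gave 85 to 180 and 139 to 251. The labels do not say whether equal replicate numbers pair the libraries. Deviations of same-numbered libraries from their genotype means correlated at 0.0759, -0.0812 and 0.105, which cannot decide this. With a replicate block limma called 138 peaks higher and 232 lower, and with limma-voom on recovered counts 171 and 324. The broad share of 29.1% was 11.3% above the 90th percentile of width, 23.0 to 30.2% when 1 library was dropped and 23.2% with quantile normalization, where the cause was not tested. The naming rule gives 56 members, which leaves out those picked after their values were seen. Of 504 values for these members, 503 moved by less than the spread between replicates, 1 moved more and none changed direction. Members were selected with every mutant value above every control value, so leaving out libraries or taking medians could not change the direction. A mean also moves little against the spread when 1 of 3 values is left out, so these counts do not show stability. With depth lowest in CtrlCre replicate 2, small values are least precise there.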
